A study of Mus musculus with 6 samples.

Results

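The regions described here were called as enriched for histone H3 acetylated at lysine 27 (H3K27ac) in Bmal1 knockout RAW264.7 cells, a macrophage-like mouse cell line, and in neither wild-type nor Mfp2 knockout cells. They were found by merging the peaks of the 3 deposited peak lists on chromosomes 1 to 19 where they overlapped by at least 1 bp. Regions were kept if they held Bmal1KO peaks only and a summed normalised tag count of at least 15, where a tag is a mapped ChIP fragment end and counts are scaled to 10 M tags per library. Of 38990 merged regions, 4970 (12.7%) were called in Bmal1KO only, and 856 of these had 15 or more tags, or 2.2% of all merged regions. The regions were chosen by their number of Bmal1KO tags and by the absence of a peak in the other lists, so neither is a finding about them.

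Each genotype, wild type (called naive in the sample titles), Bmal1 knockout (Bmal1KO) and Mfp2 knockout (Mfp2KO), had 1 ChIP library and 1 input library, and no stimulus is stated for any of them. All were grown in DMEM with 5% serum and fixed with 1% formaldehyde. Clonal origin of the knockout lines is not given in the labels. No difference between genotypes could be tested without replicates, and the 95% intervals given on shares (Wilson) and on tags (exact Poisson) cover counting only. The ChIP libraries held 12.5 M to 15.8 M tags, with Bmal1KO the smallest. Positions are in mouse build mm39. The gene table and sequences used here are of another build, so no region was assigned to a gene, no sequence is printed, and the macrophage label and the knockouts were not checked at marker or target genes.

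H3K27ac is deposited by the acetyltransferases p300 and CBP at nucleosomes beside active promoters and enhancers, and is removed by histone deacetylases. BMAL1 pairs with CLOCK and binds E-box sequences, where the pair recruits such acetyltransferases. The clock also includes the repressors REV-ERBα and REV-ERBβ, whose genes are targets of BMAL1 and which recruit deacetylase complexes to enhancers in macrophages. MFP2, encoded by Hsd17b4, acts in the β-oxidation of fatty acids in peroxisomes. A region without a peak is one that missed the caller's limits, which is not the same as a region without the mark.

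Most Bmal1KO-only regions were small and held few tags. Their median was 19.9 tags (quartiles 16.8 and 26.7) over a median width of 860.5 bp (672 and 1157), or 24.4 tags per kb. Regions called in every list had a median of 145 Bmal1KO tags over 2406 bp. All 856 regions consisted of 1 peak. The width was exactly 500 bp, the authors' window and hence the shortest width possible, in 102 of them, and 25 were wider than 2000 bp. Tag numbers thinned out quickly, with 425 regions at 20 tags or more, 168 at 30 or more, 53 at 50 or more and 15 at 100 or more. The 856 regions together held 0.707% of the tags in Bmal1KO peaks on chromosomes 1 to 19, and 0.618% without the 1 region of most tags.

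The lower limit of 15 tags passes through a dense part of this distribution. The 51 regions with the fewest tags, at 15.2, were among those kept, and 49 regions at 14.8 were not. A value of 15.2 tags corresponds to 19.1 tags in the library and has a counting interval of 9.16 to 23.7. Among these tied regions, those of highest fold over input are named, so they are not typical of the edge. Just inside the limit they lay on chromosome 1 (52791463-52792266), chromosome 15 (59552368-59553224) and chromosome 17 (36050675-36051361), at 39.1-, 9.78- and 9.78-fold. Those just outside lay on chromosome 17 (45032351-45033324), chromosome 4 (89892875-89893971) and chromosome 8 (70880067-70880698), at 973, 1096 and 631 bp. For 321 of the 856 regions, or 37.5%, the lower end of the counting interval was itself at 15 tags or more.

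How often a region with a given number of tags was called in 1 list alone was compared across the lists. Of all 16060 regions with 15 or more Bmal1KO tags, 5.33% were called in Bmal1KO only (4.99 to 5.69). The same rule gave 2166 wild-type-only regions, which were 5.56% of all merged regions and 11.1% (10.7 to 11.6) of the 19437 with 15 or more wild-type tags. It gave 1987 Mfp2KO-only regions, which were 5.1% of all merged regions and 11.6% (11.1 to 12.1) of the 17137 with 15 or more Mfp2KO tags. In Bmal1KO the share was 30.3% (27.9 to 32.7) at 15 to 20 tags, 15.2% (13.6 to 17.0) at 20 to 30 tags and 5.72% (4.79 to 6.83) at 30 to 50 tags. It was 1.58% at 50 to 100 tags and 0.176% from 100 tags upward. Up to 100 tags, the Bmal1KO share lay below the shares of wild type and of Mfp2KO, with intervals that did not overlap. The intervals cover counting within 1 library per list and not the spread between libraries of a genotype. At 100 tags or more the Bmal1KO share was close to the wild-type share of 0.185%, against 1.01% in Mfp2KO. The lists are of unequal length and each has its own tag minimum, input and share of tags in peaks. That share was 57.15% in Mfp2KO, against 38.71% in wild type and 37.35% in Bmal1KO, so a tag band need not hold like regions in each list. The part of these differences in the list-only shares was not tested.

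**Figure D1:**
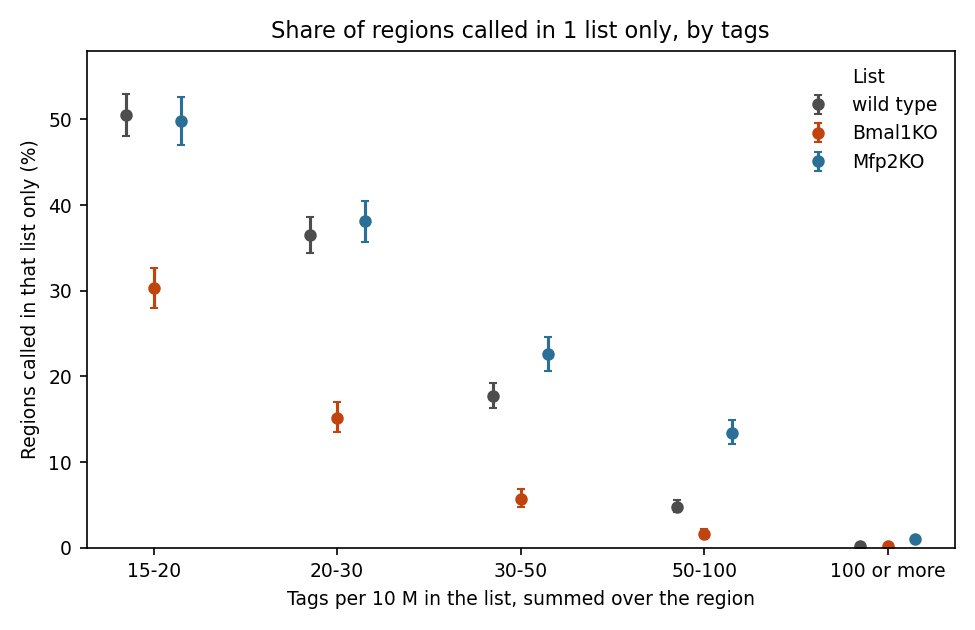
Share of merged regions called in 1 list only (percent), by the tags per 10 M that the region held in that list, for the wild-type, Bmal1KO and Mfp2KO lists; bars are 95% Wilson intervals. The Bmal1KO points sit below both other lists up to 100 tags, at 30.3% for 15 to 20 tags and 1.58% for 50 to 100 tags.

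Enrichment over input was low in these regions. It is given as a description, since every peak had to pass a limit on it to be called. Fold over input, the authors' ratio of ChIP to input tags with a lower limit of 4 in every list, had a median of 5.045 (quartiles 4.46 and 6.05). It was below 5 in 409 regions, or 47.8% (44.5 to 51.1), and below 10 in 823. Over all 16060 regions with 15 or more Bmal1KO tags, 11.8% were below 5. The difference was also there between regions of like tag number. At 15 to 20 tags, 44.8% of Bmal1KO-only regions (40.2 to 49.5) were below 5, against 23.3% (19.9 to 27.1) of regions called in every list with 1 Bmal1KO peak. At 30 to 50 tags the shares were 53.0% (44.0 to 61.9) and 23.0% (20.8 to 25.4), and at 50 to 100 tags 47.4% (32.5 to 62.7) and 14.7% (13.1 to 16.4). In regions called in every list the median fold was 14.4 from 100 tags upward and 6.03 at 15 to 20 tags. In Bmal1KO-only regions it was 5.96 and 5.15, and between 4.86 and 5.04 in the bands between.

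**Figure D2:**
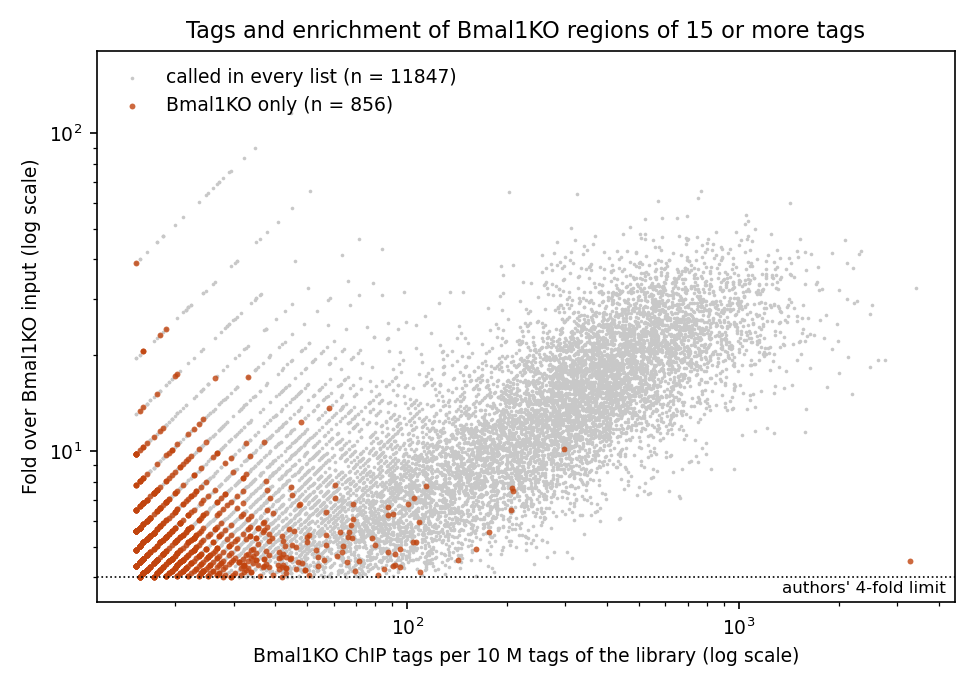
Fold over the Bmal1KO input against Bmal1KO ChIP tags per 10 M, both on log scales, for the 856 Bmal1KO-only regions (orange) and 11847 regions called in every list with 1 Bmal1KO peak (grey); the dotted line is the authors' 4-fold limit. Grey points climb with tags, while orange points stay near the limit, with 823 of 856 below 10-fold.

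The lower fold went with a higher input level at the same number of tags. Input per kb, on the same 10 M scale, had a median of 4.69 in Bmal1KO-only regions of 20 to 30 tags and 3.47 in regions called in every list. At 30 to 50 tags the medians were 5.51 and 3.86, and at 50 to 100 tags 8.28 and 4.88. Bmal1KO-only regions were also narrower there, at 1458.5 bp against 2076 bp, with 44.0 and 34.0 ChIP tags per kb. ChIP and input density rose together across the 856 regions (Spearman 0.871, a description over regions that share 1 ChIP and 1 input library). Fold is itself the ratio of ChIP to input tags. All 856 regions had to pass the 4-fold limit, and their folds lay close together (quartiles 4.46 and 6.05). A high correlation was thus largely set by the selection and is not a finding. Likewise, at a like number of tags a lower fold means more input tags by arithmetic. Input per kb also depends on width. The wild-type and Mfp2KO inputs at these places were not analysed here, and the part of input level in the calls was not tested.

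This pattern was shared with other regions of the knockout lists. Regions shared by the 2 knockout lists but missing from wild type had 47.7% below 5-fold at 15 to 20 Bmal1KO tags and 47.4% at 50 to 100 tags. Mfp2KO-only regions had 53.4% below 5-fold at 15 to 20 Mfp2KO tags, against 21.3% of regions called in every list. The wild-type list went the other way at 15 to 20 tags. There 29.8% (26.7 to 33.0) of wild-type-only regions of 15 to 20 tags were below 5-fold, against 44% (37.7 to 50.5) of those called in every list. At 20 to 30 tags the shares were 29.1% (25.9 to 32.5) and 35.7% (31.5 to 40.1), with intervals that overlap. At 30 to 50 tags they were 28.5% (24.6 to 32.8) and 26.3% (23.8 to 29.0), again with overlap. From 50 tags upward wild-type-only regions had the higher share. Wild-type-only regions were also wider, with a median of 1329 bp, and less dense, with 17.8 tags per kb. Mfp2KO-only regions were close to Bmal1KO-only regions in width, with a median of 917 bp, and denser, with 30.6 tags per kb.

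**Figure D3:**
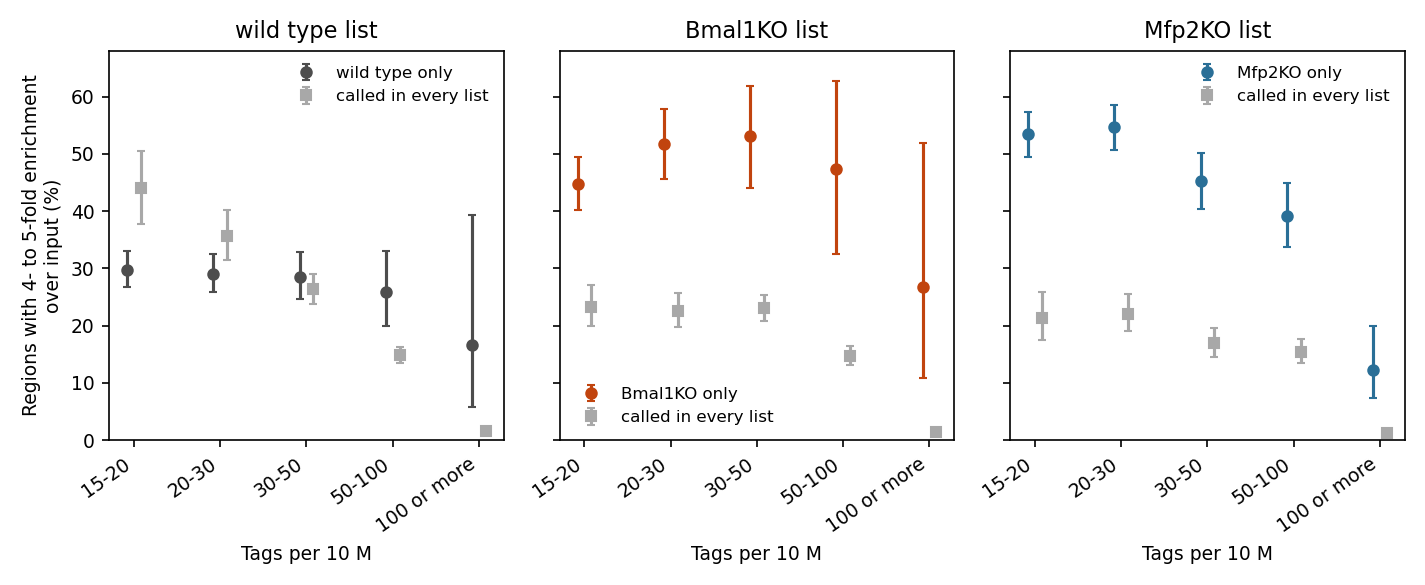
Percent of regions with 4- to 5-fold enrichment over input, by tags per 10 M, for list-only regions (circles) and regions called in every list (grey squares) in each of the 3 lists; bars are 95% Wilson intervals. In Bmal1KO and Mfp2KO the circles lie above the squares in every tag band, and in wild type they lie below them at 15 to 20 tags (29.8% against 44%).

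A small number of regions combined an enrichment far above the limit with few input tags. Fold over input reached 10 or more in 33 of the 856 regions, of which 6 had 30 tags or more. The 5 highest folds belonged to regions of 15.2 to 18.7 tags with at most 0.800 input tags, so these ratios rest on very few input tags. They were on chromosome 1 (52791463-52792266, 39.1-fold), chromosome 3 (130587938-130588918, 24.2-fold), chromosome 1 (91199515-91200442, 23.2-fold) and chromosome 2 (59939480-59940240 and 73292537-73293542, both 20.6-fold). At the other end, 4 regions had more than 5 times the median input per kb of the Bmal1KO list. Their folds were 4.22 to 4.54. They include the region of most tags, on chromosome 11 (3142967-3144219), with 3275 tags and 580 input tags per kb, and a 500 bp region on chromosome 2 (5383972-5384472) with 142 tags and 62.9 input tags per kb. The other 2 were 500 bp regions on chromosome 4 (156408563-156409063, 94.9 tags) and chromosome 3 (89222554-89223054, 49.1 tags).

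Most Bmal1KO-only regions lay within 10 kb of a wild-type or Mfp2KO peak, which by the rule they could not overlap. The median distance to the nearest wild-type peak was 5690.5 bp (quartiles 1635 and 18131), and to the nearest Mfp2KO peak 8228 bp (2605 and 24930.5). With peaks joined across gaps of up to 1000 bp, which takes out the nearest regions, the median to wild type was 9714 bp, and with sharing defined by an overlap of 50% of the shorter peak it was 3738 bp. A wild-type peak lay within 10 kb of 539 regions, or 63.0% (59.7 to 66.1), and within 1 kb of 161, or 18.8%. An Mfp2KO peak lay within 10 kb of 464 regions, or 54.2% (50.9 to 57.5). Both lists had a peak within 10 kb for 420 regions, wild type alone for 119, Mfp2KO alone for 44 and neither for 273. The wild-type list is also the longest, with 28644 peaks on chromosomes 1 to 19 against 23983 in Mfp2KO. With lists of equal length the shares within 10 kb were 55.2% for wild type and 53.1% for Mfp2KO. For Mfp2KO-only regions the share within 10 kb of a wild-type peak was 65.3% (63.2 to 67.3), with an interval that overlaps that of the Bmal1KO-only regions. Their share within 10 kb of a Bmal1KO peak was 60.9% (58.8 to 63.1). For wild-type-only regions the shares were 57.0% (54.9 to 59.1) to a Bmal1KO peak and 53.6% (51.5 to 55.6) to an Mfp2KO peak. Lying near a peak of another list was thus common to the list-only regions of every list.

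**Figure D4:**
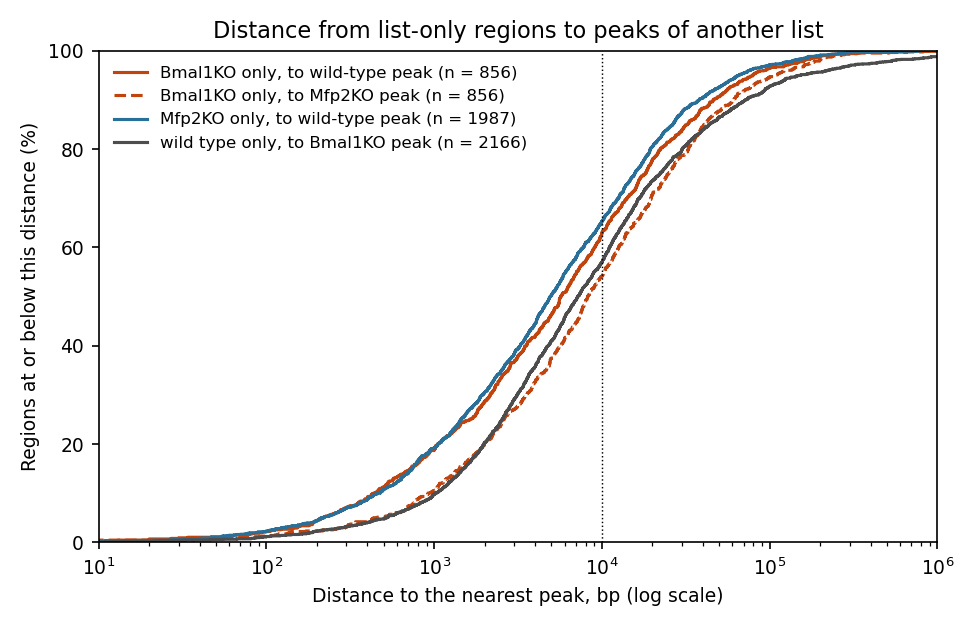
Cumulative percent of list-only regions by distance in bp (log scale) to the nearest peak of another list; the dotted line marks 10 kb. Of the Bmal1KO-only regions, 63.0% were within 10 kb of a wild-type peak and 54.2% within 10 kb of an Mfp2KO peak, and the curve of Mfp2KO-only regions to wild-type peaks runs close to the former.

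Regions right beside a wild-type peak often had a weak wild-type neighbour. Of the 161 regions within 1 kb, the nearest wild-type region was called in wild type only for 85, or 52.8% (45.1 to 60.4), whereas wild-type-only regions made up 31.9% of all wild-type regions. These 85 neighbours had a median of 10.1 wild-type tags over 500 bp. For 50 of the 161 the neighbour was called in every list, with a median of 154.5 wild-type tags over 3113 bp. From 1 to 10 kb the shares were 26.5% wild type only and 56.3% every list. The caller stitches nearby windows, and no other Bmal1KO peak lay closer than 501 bp to a Bmal1KO-only region. Neighbours also called in Bmal1KO thus had less room within 1 kb, so the shares there and over all wild-type regions are not like for like. On chromosome 18 (36647443-36649191), 1748 bp held 207 Bmal1KO tags at 7.64-fold, and a 500 bp wild-type peak of 9.18 tags ended 152 bp away. An Mfp2KO peak of 56.4 tags at 7.23-fold lay 1591 bp away, where it overlapped a Bmal1KO peak of 28.7 tags. Wild-type peaks lay within 10 kb on both sides of 179 regions, on 1 side of 360 and on neither side of 317.

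Tags and the absence of a wild-type peak chose the regions, so their values by distance are a description. Median tags were 19.9 within 1 kb, 20.5 from 1 to 10 kb, 19.9 from 10 to 50 kb and 19.9 beyond 50 kb. The share below 5-fold went from 54.0% of the 161 regions within 1 kb to 37.5% of the 80 regions beyond 50 kb, and median input per kb from 5.12 to 4.26. More than 50 kb from any wild-type and any Mfp2KO peak lay 63 regions, or 7.36% (5.79 to 9.31). Of these, 12 had 30 tags or more and 24 were below 5-fold. No other peak of any list, Bmal1KO included, lay within 10 kb of 225 regions.

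The 15 regions with most tags ranged from 100.5 to 3275 tags. All but 1 were wider than the median of the 856. A wild-type peak lay within 10 kb of 9 of them, and 3 were more than 50 kb from one. Enrichment was below 5-fold in 4 and at 6-fold or more in 7.

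The one with most tags among those at 6-fold or more lay on chromosome 6 (127125497-127128620). It held 297.6 tags (268 to 329) over 3123 bp at 10.1-fold, with 29.4 input tags. A second Bmal1KO-only region of 87.8 tags and 6.66-fold (127131446-127132856) followed 2826 bp away. At 38049 bp, toward lower coordinates, a region was called in every list, with 107 wild-type, 141 Bmal1KO and 281 Mfp2KO tags. The cells of all 3 genotypes thus had a call at that flanking region, and only the Bmal1KO list had calls at the pair.

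Several of the strong regions lay beside domains called in every list, whose Bmal1KO tags were above wild type in some places and below it in others. On chromosome 4 (117782495-117785299), 209 tags (184 to 236) were found at 7.49-fold, 5540 bp from a domain with 396 wild-type, 405 Bmal1KO and 658 Mfp2KO tags. On chromosome 5 (114530857-114532990), 104.9 tags at 7.12-fold lay 10592 bp from a domain with 454 wild-type, 812 Bmal1KO and 802 Mfp2KO tags. On chromosome 5 (137284264-137287084), 205 tags at 6.53-fold lay 4222 bp from a wild-type peak of 170 tags. The Bmal1KO and Mfp2KO peaks at that place had 264 and 758 tags. On chromosome 7 (18744797-18747321), 162 tags were found at 4.90-fold, 5033 bp from a domain with 788 wild-type and 623.5 Bmal1KO tags, and 413 bp from an Mfp2KO peak of 7.92 tags. On chromosome 12 (8907242-8909006), 100.5 tags at 6.82-fold lay between 2 shared domains. One had 72.2 wild-type and 61.4 Bmal1KO tags and the other 96.2 and 69.4. In these 5 places the neighbouring domain was called in every genotype. Mfp2KO tags above wild type were common among shared regions. Over all regions called in every list, they were above wild type in 63.1%, with a median log2 ratio of 0.44. The values at these places are therefore not gains particular to them.

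The surroundings of the other strong regions varied. On chromosome 14 (19818117-19820592) there were 114 tags at 7.75-fold. Within 50 kb, wild type had 2 peaks with 23.1 tags in all and Mfp2KO 1 peak with 9.19 tags. Regions on chromosome 2 (9882950-9886942, 176 tags over 3992 bp, 5.55-fold; and 155584373-155586106, 108.5 tags, 5.96-fold) lay 6561 and 4231 bp from wild-type peaks. A region on chromosome 4 (141028485-141029901) had 106 tags at 5.17-fold, 18646 bp from a wild-type peak. A further 2 of the 15 had no wild-type peak within 50 kb but did have Mfp2KO peaks there. These were on chromosome 6 (88165674-88167644, 109 tags, 4.15-fold) and chromosome 4 (150038634-150039654, 104 tags, 5.17-fold).

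**Figure D5:**
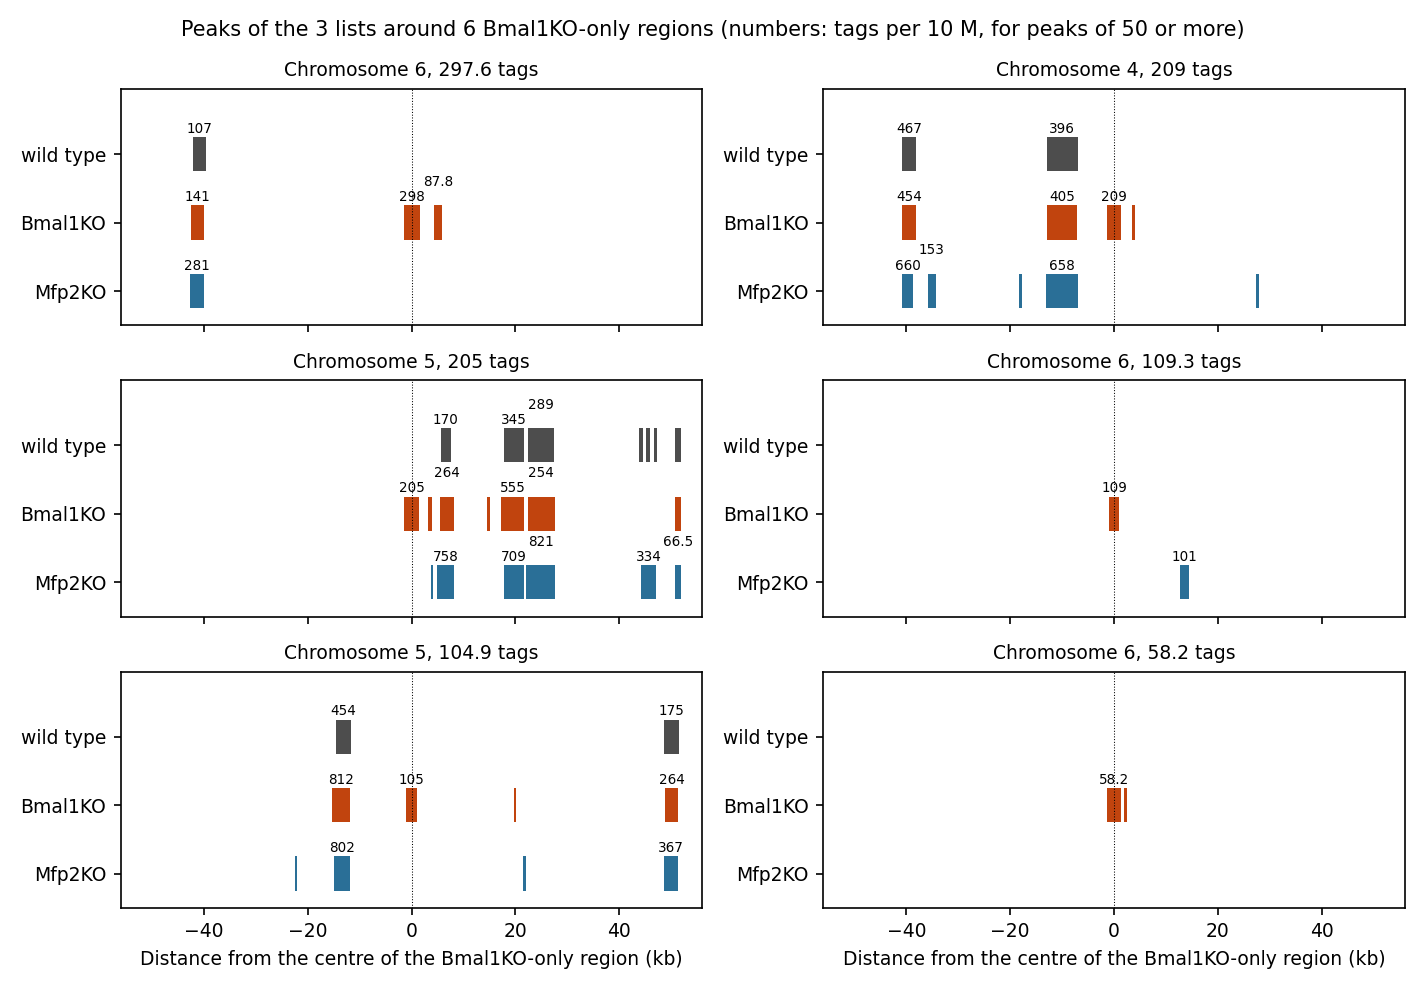
Peaks of the wild-type, Bmal1KO and Mfp2KO lists around 6 Bmal1KO-only regions, by distance in kb from the centre of the region; bars are peaks drawn to scale, and numbers are tags per 10 M for peaks of 50 or more. The pair on chromosome 6 (297.6 and 87.8 tags) has no counterpart in either other list, while the flanking region 38049 bp away is called in all 3.

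Among regions of 30 tags or more, the 5 farthest from any wild-type peak were 121573 to 275273 bp away. On chromosome 6 (55513225-55515880), 58.2 tags (45.6 to 73.2) over 2655 bp were enriched 13.7-fold, with the nearest wild-type and Mfp2KO peaks 275273 and 279316 bp away. A smaller Bmal1KO peak of 13.2 tags lay 505 bp from it. On chromosome 9 (64471015-64473702) there were 60.6 tags at 7.11-fold, 135665 bp from a wild-type peak and 628 bp from a further Bmal1KO peak. On chromosome 14 (24778966-24780713) there were 67.8 tags at 5.83-fold, with no other peak of any list within 235741 bp. Another region on chromosome 6 (53424408-53426430) had 37.9 tags at 5.75-fold, 121573 bp away. The fifth was the high-input 500 bp region on chromosome 2. None of these 5 had a wild-type or Mfp2KO peak within 50 kb.

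Strength, enrichment and isolation were also looked at together. Of the 53 regions with 50 tags or more, 16 had at least 6-fold enrichment and 22 were below 5-fold. Of all 856 regions, 273 (31.9%) lay more than 10 kb from any wild-type and any Mfp2KO peak. Of the 16 strong regions at 6-fold or more, 7 did so, a combination chosen after the values were seen. Besides the chromosome 6 pair, the chromosome 5 region of 104.9 tags and the distant regions on chromosomes 6 and 9, these were on chromosome 4 (120005233-120006944, 90.9 tags, 6.34-fold) and chromosome 17 (46794790-46796072, 68.6 tags, 6.81-fold).

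Whether the same density would have met the tag minimum in wild type can be worked out from the headers. The minimum of 10 tags per 500 bp window in the wild-type library equals 6.33 tags per 10 M, and that of Bmal1KO, 9 tags, equals 7.18. Mean Bmal1KO density per 500 bp reached the wild-type minimum in 851 of the 856 regions, which the higher Bmal1KO minimum nearly ensures. It was at least 2 times the wild-type minimum in 386 regions, at least 3 times in 94 and at least 5 times in 13. Wild-type tags at these places were not analysed here, and a call also needed 4-fold enrichment over the wild-type input.

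The regions were spread over all 19 chromosomes. Their share among regions of 15 or more Bmal1KO tags was between 3.69% (2.49 to 5.44) on chromosome 13, with 24 of 650, and 6.80% (5.18 to 8.87) on chromosome 15, with 49 of 721. The interval included the 5.33% of all chromosomes together for every chromosome. Chromosome 11 had the most regions, 82 of 1372. Over 299 windows of 5 Mb with at least 20 such regions, the median share was 4.88%, and 45 windows had none.

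In 16 of the 299 windows the lower limit of the share was above 5.33%, and in none was the upper limit below it. The latter was out of reach for small windows. With 0 of 68 regions, on chromosome 7 from 95 to 100 Mb, the upper limit was still 5.35%. The counts of 16 and none can therefore not be set against each other. The highest shares were on chromosome 12 from 15 to 20 Mb, with 5 of 23 (21.7%, 9.66 to 41.9), and chromosome 6 from 90 to 95 Mb, with 5 of 26 (19.2%, 8.51 to 37.9). Bmal1KO input per kb over wild-type input at shared regions was 0.09 above and 0.28 below the median region on the log2 scale in these windows. Among the 16, the window with most Bmal1KO-only regions was on chromosome 11 from 115 to 120 Mb, with 13 of 136 (9.56%, 5.67 to 15.7). Chromosome 10 from 80 to 85 Mb had 11 of 111 (9.91%, 5.62 to 16.9). Chromosome 17 from 45 to 50 Mb and chromosome 3 from 85 to 90 Mb each had 10 of 87 (11.5%, 6.36 to 19.9). Chromosome 5 from 110 to 115 Mb had 9 of 68 (13.2%, 7.12 to 23.3). These windows are picked from 299, which the intervals do not allow for.

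Most Bmal1KO-only regions had no other Bmal1KO-only region within 50 kb. This count was not worked out for any other set, so whether the regions group more or less than others was not tested. With a distance of up to 50 kb, 692 of the 856 regions stood alone, 128 were in pairs, 24 in groups of 3 and 12 in groups of 4. The groups of 4 were on chromosome 7 (141987553-142039606, 217 tags in all) and chromosome 17 (24822768-24866062, 76.3 tags, and 36050675-36140731, 69.9 tags). The 4 regions of a group have no wild-type or Mfp2KO peak by the rule. Between the first and the last of those on chromosome 7, wild type had 7 peaks and Mfp2KO 8, and for those from 24822768 on chromosome 17 the numbers were 1 and 2. Of the 8 groups of 3, those with most tags were on chromosome 12 (17487154-17517793, 127 tags in all) and chromosome 15 (77655382-77704379, 102 tags in all). The shortest stretch with 3 regions, 23985 bp on chromosome 11 (104515023-104539008, 61.7 tags in all), held no wild-type or Mfp2KO peak. It was named after its values were seen.

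Bmal1KO levels in the shared regions next to Bmal1KO-only regions were set beside those of all shared regions. Over all 14443 regions called in every list, the median log2 ratio of Bmal1KO to wild-type tags was -0.20 (quartiles -0.82 and 0.38). For the 367 shared regions that were nearest to a Bmal1KO-only region and within 10 kb of it, the median was -0.14 (-0.57 and 0.45). Bmal1KO tags were above wild type in 40.9% of these, against 41.3% of all. Within 1 kb, where there were 68 such regions, the median was -0.17, with 35.3% above. The corresponding input ratios had medians of -0.02 over all and -0.02 within 10 kb. Mfp2KO tags over wild type had medians of 0.44 over all shared regions and 0.56 at the 367. These ratios share the wild-type library, and were computed on tags scaled to each library's total.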

How the data were processed

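H3K27ac ChIP-seq with input was done on 3 genotypes of RAW264.7 cells, and 3 peak lists, 1 per ChIP library, were used. HOMER findPeaks made them in histone style, per the file headers, with the matching genotype's input as control. Windows of 500 bp with p up to 0.001 were stitched, and the authors' limits over input were 4-fold and a p-value of 0.0001. HOMER 5.1, BWA 0.7.19-r1273 and build mm39 are named in the submitters' processing notes. The handling of duplicate reads is not stated in the labels or headers. The normalized tag count is a signal the authors scaled to 10 M tags. Fold is the deposited ratio of ChIP tags to depth-scaled input tags. The deposited score and p-value were not used for any result.

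Peaks were merged at 1 bp overlap, and distances are gaps between ends, with Python 3.11.15 and pandas 2.3.3. Input per 10 M tags was computed from the deposited tag columns. The merging was tested on simulated lists. The regions, the gene lists and the limits were chosen with earlier results of these data known. Gene lists and motifs were set but not used, since no gene table or genome of mm39 was at hand. Regions named are the 15 with most tags, the 5 with the highest fold, the 5 of 30 or more tags farthest from wild type, 3 on each side of the limit and the 5 groups with most regions, ties taken by summed tags. The rule spoke of the densest groups, and this reading of it was chosen later. Describing enrichment by a 5-fold limit, and the comparisons within tag bands of fold and input, were chosen after the values were seen.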

Additional observations from a re-analysis of the deposited data

Results flagged for a closer look

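Chromosome X lies outside the rule of chromosomes 1 to 19 and held 6 Bmal1KO-only regions of 15 or more tags, each at least 4-fold above its input, out of 317 regions of 15 or more Bmal1KO tags (1.89%, 0.870 to 4.07). Of the 6, 4 lay between 168960950 and 169107274. The strongest (169105343-169107274) had 102.9 tags at 6.32-fold, 4476 bp from a wild-type peak, and another (168960950-168962311) had 48.3 tags at 10.4-fold, 126362 bp from one.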

How the results depend on the processing

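The number of Bmal1KO-only regions, 856, followed the tag minimum, with 2134 at 10 tags, 425 at 20 and 168 at 30. It also followed the enrichment limit, with 447 for Bmal1KO peaks of 5-fold or more and 222 at 6-fold. Asking 5-fold of wild-type and Mfp2KO peaks instead, an alternative chosen after seeing the data, gave 1548. Under the 7 other alternatives it was within 1.5 times the reported number. The share within 10 kb of a wild-type peak, 63.0%, was 57.5% with peaks joined within 500 bp and 51.4% within 1000 bp, and 68.8% when sharing needed an overlap of 50% of the shorter peak. It was 59.5% and 58.6% for Bmal1KO peaks of 5-fold and 6-fold or more, 55.2% with lists of equal length by tags, and 54.9% with 5-fold asked of wild-type and Mfp2KO peaks. The share within 10 kb of an Mfp2KO peak, 54.2%, was 49.9% and 44.6% with peaks joined within 500 and 1000 bp, 58.6% with the 50% overlap, and 49.9% and 46.4% at 5-fold and 6-fold. It was 53.1% with lists of equal length, so most of the gap between the wild-type and Mfp2KO shares was not there under that setting. The median distance to a wild-type peak, 5690.5 bp, ranged from 3738 to 9714 bp over the alternatives. Joining peaks removes by construction the regions nearest to other peaks, and for the other settings the cause was not tested. The share with a transcription start within 1 kb was not run, as no gene table of mm39 was at hand. No paired analysis was possible because each genotype had 1 ChIP library with no replicate number.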
